A study of Mus musculus with 16 samples.

Results

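Mouse melanoma biopsies labelled resistant were compared with untreated tumours across all genes measured on a 2-colour array. The comparison took every sample titled as resistant and every sample titled as untreated, 8 of the 16 samples of the series, with 4 in each group. The series asks what acquired resistance to BRAF inhibitors does to immune suppression in melanoma. The resistant tumours are labelled as treated for 120 days, and the untreated tumours as controls. The other 8 samples, 4 taken after 4 days and 4 after 60 days of treatment, served to estimate the spread and are given beside single genes. The drug, the strain, the genotype of the tumours, the age of the mice and the way resistance was judged are not stated in the labels used here. The titles carry codes whose meaning is likewise unstated: RG4 for resistant replicates 1 and 2, RG5 for resistant replicates 3 and 4, RG10 for untreated replicates 1 to 3 and RG9 for untreated replicate 4. Nothing in the labels says that the samples of a group came from separate mice, so the p-values measure the spread between these samples.

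BRAF is a kinase of the MAPK cascade, which passes growth signals from receptors through RAS, RAF, MEK and ERK to transcription. Mutant BRAF keeps this cascade on in many melanomas, and inhibitors of BRAF switch off ERK-driven genes such as the feedback phosphatase Dusp6 and the cyclin Ccnd1. Tumours that grow again under drug commonly regain ERK signalling, and melanomas are also infiltrated by myeloid cells and T cells, which drug and relapse can alter.

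Each array carried tumour RNA in Cy5 against Universal Mouse Reference RNA in Cy3, and a level is given as the log2 ratio of the tumour over that reference. Cy5 was above background for 49.0% to 54.2% of probes per array. After a filter on dim probes 21911 genes were tested, 15929 of them with a RefSeq symbol. The arrays lay on 2 slides, which were scanned on different days: slide 2 held replicates 1 and 2 of each group and slide 1 held replicates 3 and 4. Resistant tumours of code RG4 were therefore all on slide 2 and those of RG5 all on slide 1, so code and slide cannot be told apart within that group. Of the pigment-lineage markers, Sox10, Mitf, Tyrp1, Dct, Pmel and Mlana were above background on all 8 arrays. Tyr was above background on 4 untreated and 3 resistant arrays. Resistant replicate 1 and untreated replicate 3 stood apart. On the first principal component, which held 40.0% of the variance over all 16 arrays, resistant replicate 1 lay at 91.1 and the other resistant tumours at 16.7, -28.5 and -14.9, while untreated replicates 1 to 4 had 33.1, 56.9, -19.1 and 49.8. The correlation over genes, which are no replicates of one another, had a median of 0.813 for pairs of resistant arrays, 0.864 for pairs of untreated arrays and 0.844 for pairs of a resistant and an untreated array.

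Few genes separated the resistant from the untreated tumours. In limma, with the slide as a block and the spread shared by all 16 arrays, 14 features passed an adjusted p of 0.05 (Benjamini-Hochberg), which is 0.0639% of the 21911 tested, and 8 of them differed by at least 2-fold. The features that rose were 6 (0.0274%), namely Adh1, Wfdc21, Nupr1, Pla2g5, Dgat1 and H1f2. The 8 that fell (0.0365%) included E2f1, Fblim1, Crtac1 and 4 transcripts or probes without a gene symbol. Of these 8, 3 were above background on all 4 untreated arrays and on no resistant array, so their resistant level is only a bound, and the untreated arrays alone were enough for them to pass the filter on dim probes. The number called depended on single arrays. It was 221 without resistant replicate 1 and 408 without untreated replicate 3, against 4, 30 and 2 without resistant replicates 2, 3 and 4, and 3, 3 and 2 without untreated replicates 1, 2 and 4. It was 2039 with resistant replicate 1 and untreated replicate 3 both left out, and each of these 3 larger sets contained all 14. Leaving out 1 of the other 8 arrays gave 3 to 37. At an unadjusted p under 0.05, 13.6% of genes differed, 5.51% higher and 8.06% lower. Of all genes 52.2% had a difference above 0 and 47.8% below 0. Against the same untreated arrays, 2.93% of genes passed in the 4-day tumours and 2.8% in the 60-day tumours.

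The 4 features without a symbol are shown by their probes, since their sequence is the only identity the array gives them. Each probe is a 60-base DNA strand, and coordinates are those of the array files on mm9. The first is described there as a transcript of a RIKEN cDNA gene (ENSMUST00000067018, chr8:111772977-111773036, reverse strand). The next is a long intergenic RNA model on the reverse strand at chr8:111766396-111772271, which ends just before it. The third is another such model at chr8:49915104-49915704, and the last probe has no position or annotation in the files.
ENSMUST00000067018: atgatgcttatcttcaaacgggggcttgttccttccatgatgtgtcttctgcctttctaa
chromosome 8 lincRNA at 111766396: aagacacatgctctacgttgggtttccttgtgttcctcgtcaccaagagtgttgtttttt
chromosome 8 lincRNA at 49915104: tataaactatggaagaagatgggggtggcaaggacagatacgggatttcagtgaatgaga
probe A_55_P2153141: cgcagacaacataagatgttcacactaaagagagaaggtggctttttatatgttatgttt

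Adh1, the class I alcohol dehydrogenase that oxidises ethanol and retinol (probe at chr3:137952821-137952880, mm9), rose most among the called genes. Its log2 ratio was 1.88, 0.86, 1.15 and 0.90 in untreated replicates 1 to 4 and 2.74, 3.87, 3.18 and 3.20 in resistant replicates 1 to 4. The groups did not overlap, and the lowest resistant tumour was the one that stood apart. The difference was 2.05 ± 0.24 (log2, SE, n = 4 per group), or 4.14-fold, with an adjusted p of 0.00719 in limma. Against the same untreated arrays the difference of Adh1 was 2.32 in the 4-day tumours and 1.99 in the 60-day tumours.

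Nupr1, a small chromatin-associated protein induced by cell stress, read -0.96, -0.84, 0.15 and -0.61 in the untreated tumours and 1.21, 0.71, 1.14 and 1.46 in the resistant tumours. It rose by 1.69 ± 0.24 (log2, SE) with an adjusted p of 0.0446 in limma. Against the same untreated arrays its difference was 1.08 at 4 days and 1.41 at 60 days. Untreated replicate 3 was the highest of its group for Nupr1 and still lay below every resistant tumour. Pla2g5, a secreted phospholipase A2, lay between -1.80 and -1.51 in the untreated tumours and at -0.19, 0.33, -0.12 and -0.21 in the resistant tumours. It rose by 1.54 ± 0.23 (log2, SE, adjusted p = 0.0474, limma), and both groups were tight. Its difference was 0.71 at 4 days and 1.56 at 60 days.

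Dgat1, which makes triglyceride from diacylglycerol, rose by 0.89 ± 0.14 (log2, SE, adjusted p = 0.0474, limma), from -0.35, -0.22, 0.10 and -0.08 in the untreated tumours to between 0.52 and 0.96 in the resistant tumours. Wfdc21, a secreted protein with a WAP domain, read 4.39, 4.86, 3.56 and 3.87 in the untreated tumours and 5.73, 7.02, 4.92 and 6.09 in the resistant tumours. It rose by 1.77 ± 0.29 (log2, SE, adjusted p = 0.0474, limma), with the lowest resistant value only just above the highest untreated one. The linker histone H1f2 rose least, by 0.69 ± 0.11 (log2, SE, adjusted p = 0.0474, limma), from 0.00 to 0.47 in the untreated tumours to 0.67 to 1.14 in the resistant tumours. The 4-day and 60-day differences were 0.48 and 0.62 for Dgat1, 1.43 and 1.88 for Wfdc21, and 0.57 and 0.48 for H1f2.

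The lowest adjusted p of the comparison belonged to ENSMUST00000067018, for which the array annotation gives no role. It read 2.05, 2.11, 1.71 and 1.77 in the untreated tumours and 0.32, 0.34, 0.30 and 0.17 in the resistant tumours, and fell by 1.63 ± 0.10 (log2, SE, adjusted p = 1.57e-05, limma). The groups were far apart for their spread, and the 4-day and 60-day differences were -1.64 (from 3 arrays, since the spot on 4-day replicate 2 was an outlier) and -1.77. Its probe was above background on all 4 resistant arrays but dim there, with a mean log2 Cy5 of 6.95 against 8.60 in the untreated tumours. Under other processing settings its resistant difference ran from -2.34 to -1.48. The adjoining lincRNA read between 0.77 and 1.10 in the untreated tumours and was not well above background on any resistant array, where its ratios lay between -0.03 and 0.18. On the Cy5 scale it was at least 1.71-fold higher in the untreated tumours (adjusted p = 0.000454 for the log ratios, limma), a bound set against the lowest signal that counted as above background. The other chromosome 8 lincRNA read between 1.47 and 2.01 in the untreated tumours and between 0.38 and 0.54 in the resistant tumours, and a further probe for it differed by -0.73. The 4-day and 60-day differences of this lincRNA were -1.43 and -1.40, and those of the adjoining lincRNA were -0.99 and -0.95.

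E2f1, a transcription factor that drives entry into S phase, read -0.43, -0.48, -1.10 and -0.62 in the untreated tumours and -1.16, -1.24, -1.50 and -1.50 in the resistant tumours. It fell by 0.69 ± 0.11 (log2, SE, adjusted p = 0.0474, limma), and untreated replicate 3 lay only just above the resistant range. The difference of E2f1 was -0.83 at 4 days and -0.88 at 60 days. Fblim1, which links filamins to integrin adhesions, read between 0.86 and 1.26 in the untreated tumours and 0.70, 0.38, -0.13 and 0.12 in the resistant tumours, a fall of 0.81 ± 0.13 (log2, SE, adjusted p = 0.0474, limma). Its differences in the 4-day and 60-day tumours were -1.30 and -1.45.

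Crtac1, a cartilage matrix protein, was above background on all 4 untreated arrays and on none of the resistant arrays. It read 1.14, 2.04, 0.81 and 1.22 in the untreated tumours and its ratios on the resistant arrays, which are at background, lay between -0.01 and 0.20 (adjusted p = 0.0474, limma). No fold is given for it, since its Cy5 bound, 2.51, was above the 2.31-fold of its log ratios. Probe A_55_P2153141 fell by 0.51 ± 0.08 (log2, SE, adjusted p = 0.0474, limma) between groups that did not overlap. The 4-day and 60-day log ratio differences were -0.36 and -0.46 for this probe and -0.84 and -0.99 for Crtac1.

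**Figure D1:**
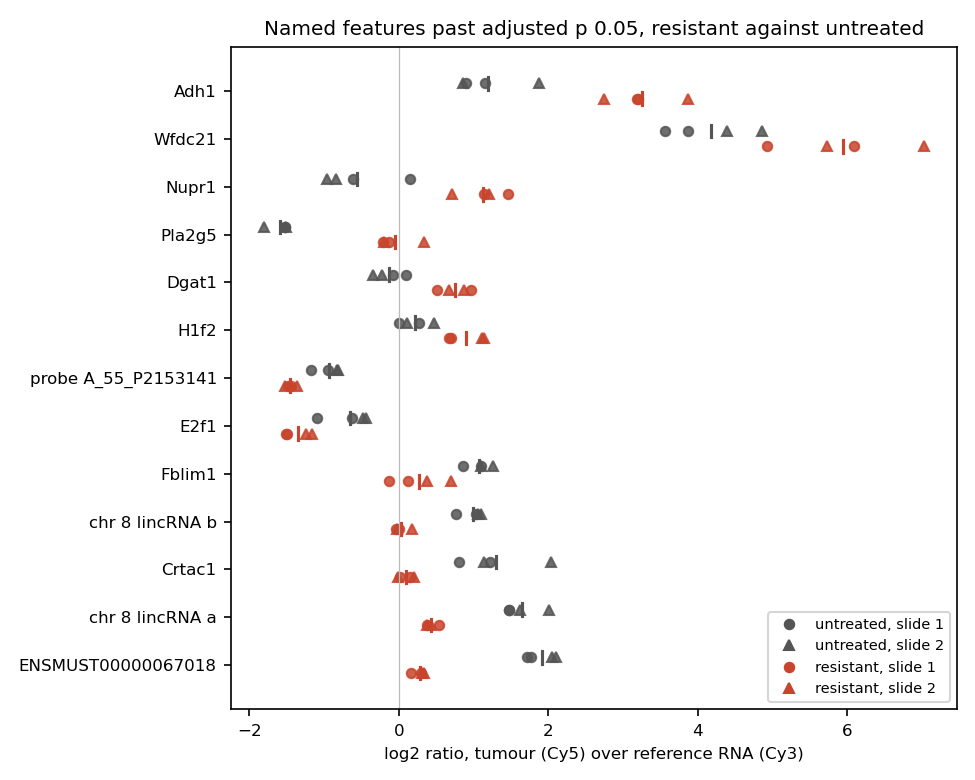
Features past an adjusted p of 0.05 that are named in the text, with the log2 ratio of tumour over reference on the x axis, 1 point per array (4 untreated, 4 resistant, circle for slide 1 and triangle for slide 2) and a tick at each group mean; lincRNA b is the model beside ENSMUST00000067018 and lincRNA a the other one. The groups do not overlap for any of them, and the distance is largest for Adh1, at 2.05.

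Beyond these, 6 higher and 8 lower genes of at least 2-fold, those with the next smallest p-values in each direction, did not pass, with limma's adjusted p between 0.0736 and 0.0798. Among the higher ones, the lipid droplet coat protein Plin2 read -0.29, 0.20, 0.80 and 0.34 in the untreated tumours and 0.84, 1.72, 1.56 and 2.07 in the resistant tumours, a difference of 1.29 (adjusted p = 0.0736, limma). Dusp1, a stress-induced phosphatase of MAP kinases, differed by 1.11, and Chd5, Nxph3 and Cfap100 by 1.08 to 1.67. Among the lower ones, the integrin Itga8 differed by -1.84, the matrix protein Cthrc1 by -1.15, the nuclear lamina protein Tmpo by -1.03 and the thromboxane synthase Tbxas1 by -1.04. For Tmpo that is the brightest probe, and its 3 other probes differed by -0.78 to -0.14. Tenm3, whose probe also lies on chromosome 8, at 49420146 to 49420205, differed by -1.23, and a further probe for it by -0.95.

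The MAPK pathway was read through its targets. Of 16 measured genes of MAPK output, 11 were below 0 and 5 above, and none passed the adjusted threshold. At an unadjusted p under 0.05, 6 were lower and 1 higher, against 8.06% and 5.51% of all genes. The list had a median difference of -0.24, against 0.01 over all genes. It was -0.63 at 4 days and -0.35 at 60 days. The 6 lower became 2 without resistant replicate 2 or untreated replicate 2, and 3 without untreated replicate 4. Over all genes the lower ones went from 1767 to 1117, 1284 and 1446 in these fits, in the same order. Dusp6, the ERK phosphatase induced by ERK itself, read 0.89, 1.10, 1.26 and 1.20 in the untreated tumours and 0.55, 0.39, -0.33 and 0.31 in the resistant tumours. These values did not overlap, and the difference of -0.88 ± 0.19 (log2, SE) had an adjusted p of 0.0905 in limma. Against the same untreated arrays Dusp6 differed by -0.94 at 4 days and -0.98 at 60 days.

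Ccnd1, the G1 cyclin downstream of ERK, read 2.78, 2.72, 1.75 and 2.81 in the untreated tumours and 1.58, 1.77, 1.45 and 1.77 in the resistant tumours. Untreated replicate 3 lay within the resistant range, and the difference was -0.87 ± 0.31 (log2, SE, adjusted p = 0.242, limma). Against the same untreated arrays its differences were -2.40 at 4 days and -1.32 at 60 days. Spry4, a feedback inhibitor of the pathway, differed by -0.91 (adjusted p = 0.302, limma) with no overlap, against -1.87 at 4 days and -0.89 at 60 days. Etv5 differed by -0.59 and Phlda1 by -0.50, and Myc was the only MAPK output gene higher at an unadjusted p under 0.05, by 0.51.

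The components of the cascade were close to the untreated level. Braf differed by 0.04 (95% confidence interval -0.36 to 0.45). None of the 16 genes for RAS, RAF, MEK and ERK components passed, with a median of 0.10, and none of the 16 receptor tyrosine kinases did, with a median of 0.05. Egfr differed by -0.06 (-0.34 to 0.21), Axl by -0.15 (-0.53 to 0.23) and Pdgfrb by 0.19 (-0.31 to 0.68). Transcript levels do not read kinase activity.

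**Figure D2:**
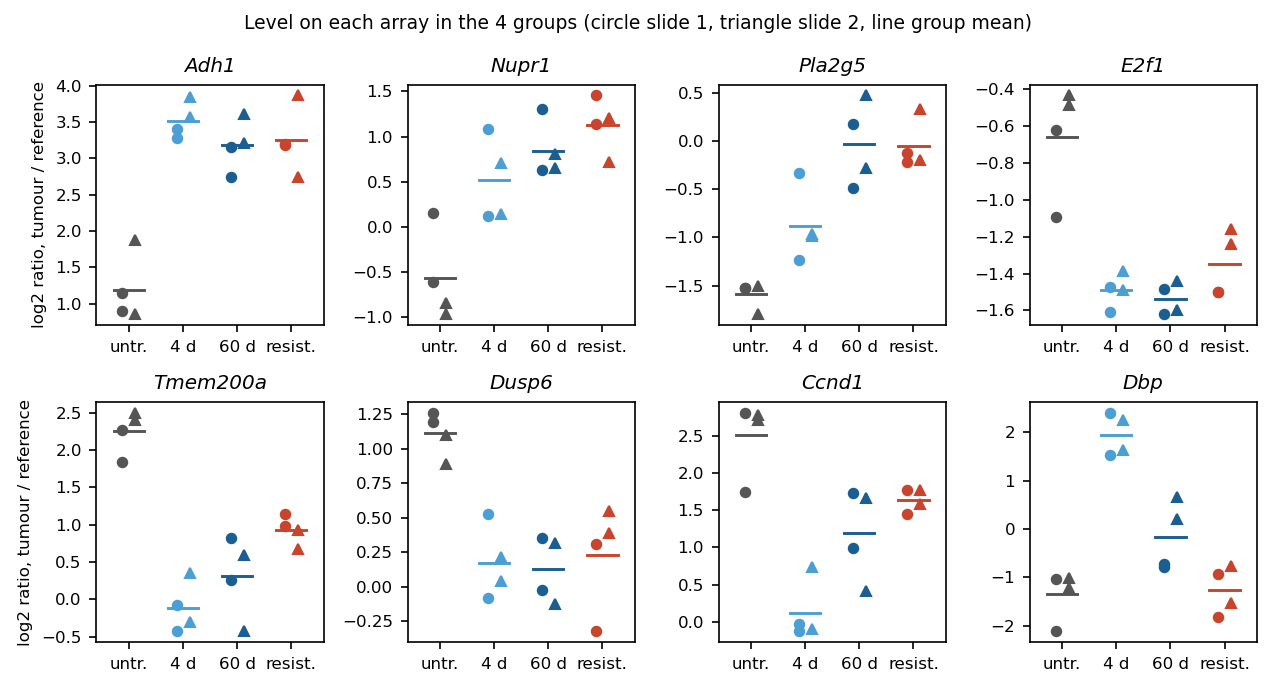
Log2 ratio of tumour over reference for 8 genes on each of the 16 arrays, by group (untreated, 4 days, 60 days, resistant), with circles for slide 1, triangles for slide 2 and a line at each group mean. Adh1 is above the untreated tumours in all treated groups. Dbp differed by 3.30 at 4 days, and its resistant values of -1.83 to -0.76 overlap untreated values of -2.12 to -1.02.

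No gene of the pigment cell or neural crest lists passed the test. Mitf, the melanocyte master regulator, differed by 0.09 (95% interval -0.34 to 0.52), Sox10 by -0.04 (-0.43 to 0.35) and the pigment enzyme Tyr by -0.16 (-0.85 to 0.54). Resistant replicate 2 was the highest of its group for several pigment genes: Pmel read 0.44, 2.89, 1.91 and 1.90 in the resistant tumours and Mlana 1.81, 4.61, 1.98 and 2.17. Of 18 pigment genes, 10 were above 0 and none differed at an unadjusted p under 0.05, with a median of 0.06, against 0.90 at 4 days and 0.89 at 60 days. Without resistant replicate 1, which was the lowest of its group for Pmel, Mlana and Tyrp1, 17 were above 0, 3 were higher and 1 lower at an unadjusted p under 0.05 and the median was 0.20. In that fit 2105 of all 21911 genes were higher and 1855 lower at an unadjusted p under 0.05 (limma). The pigment median was -0.16 without resistant replicate 2. In the neural crest list Fabp7 differed by -1.65 and Ngfr, a receptor of dedifferentiated melanoma cells, by -0.79, neither of which passed.

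Among the genes of the cell cycle E2f1 was the only one that passed. Of 17 measured DNA replication genes, 16 were below 0. At an unadjusted p under 0.05, 13 were lower and none higher, against 8.06% and 5.51% of all genes. For 8 the groups did not overlap, against 4.29% of all genes. The median difference of the replication genes was -0.50. Against the same untreated arrays it was -0.67 at 4 days and -0.50 at 60 days. Mcm4, a subunit of the replicative helicase, read -0.82, -0.96, -0.84 and -0.94 in the untreated tumours and -1.97, -1.85, -1.10 and -1.41 in the resistant tumours, a difference of -0.69 (adjusted p = 0.0798, limma). Mcm3 differed by -0.61 (adjusted p = 0.0794, limma), Rrm2, of ribonucleotide reductase, by -0.81 and the sliding clamp Pcna by -0.50, all with no overlap.

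All 17 measured mitosis genes were below 0, and 9 were lower at an unadjusted p under 0.05, against 8.06% of all genes. The mitosis median was -0.54, against -0.68 at 4 days and -0.29 at 60 days. Birc5, the mitotic survivin, differed by -0.85 with no overlap, and the proliferation marker Mki67 by -0.74 (adjusted p = 0.383, limma). Mki67 read -2.63 and -2.55 in resistant replicates 1 and 2, -0.69 and -1.03 in resistant replicates 3 and 4, and -0.54, -1.69, -0.52 and -1.17 in the untreated tumours. The difference was larger within slide 2, which held the resistant tumours of code RG4, than within slide 1, which held those of RG5. Slide and code cannot be told apart there. The median of the replication genes was -0.22 within slide 1 and -0.77 within slide 2, and that of the mitosis genes -0.15 and -0.93. Within slide 1 alone, 1 replication gene and 0 mitosis genes were lower at an unadjusted p under 0.05 (limma), and within slide 2 alone 12 and 16 were. Over all 21911 genes, 317 were lower within slide 1 alone and 1852 within slide 2 alone. Without resistant replicate 1 the replication median was -0.46. It was -0.54 without untreated replicate 3, when 5 of the genes passed, against 408 of all genes. Of the mitosis genes, 1 was lower at an unadjusted p under 0.05 without resistant replicate 2 or without untreated replicate 1, 3 without resistant replicate 1 and 5 without untreated replicate 3. It was 14 when resistant replicate 3 or untreated replicate 4 was dropped. In the same order, 1117, 1148, 1855, 2468, 2027 and 1446 of all genes were lower in these fits, against 1767 in the main fit.

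Promoters of replication genes are known targets of E2F factors, and since E2f1 is the member of the list that passed, the upstream sequence of the listed genes was searched for the letters TTTGGCGC, TTTCGCGC, TTTCCCGC and TTTGCCGC on both strands. Of the 15 replication genes with an entry among the RefSeq promoters (GRCm38.p6), 5 held a match in the 250 bases before the start (33.3%). So did 1 of the 15 mitosis genes (6.67%) and 3.36% of the 12500 tested genes with an entry. The listed genes with a match were Cdc6, Cdk1, Mcm5, Mcm6, Mcm7 and Pola1, and E2f1, Mcm3, Mcm4, Rrm2 and Pcna were not among them. The 250 bases upstream of Mcm6 and of Mcm5, which had the most matches, are shown, with the matches in capitals. Mcm6 had 3 matches and Mcm5 had 2, and those that run into each other lie on opposite strands.
Mcm6 (chr1:128359706-128359955, reverse strand): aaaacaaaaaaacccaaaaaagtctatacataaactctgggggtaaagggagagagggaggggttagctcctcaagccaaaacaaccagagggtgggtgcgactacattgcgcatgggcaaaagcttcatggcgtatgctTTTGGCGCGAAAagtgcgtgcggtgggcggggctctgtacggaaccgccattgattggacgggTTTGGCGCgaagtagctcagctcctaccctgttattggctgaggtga
Mcm5 (chr8:75109259-75109508, forward strand): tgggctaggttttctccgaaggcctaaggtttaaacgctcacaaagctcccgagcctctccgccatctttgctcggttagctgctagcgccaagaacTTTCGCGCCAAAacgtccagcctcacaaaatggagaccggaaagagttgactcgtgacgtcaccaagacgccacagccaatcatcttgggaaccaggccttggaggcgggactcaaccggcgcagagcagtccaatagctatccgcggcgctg

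Mcm6 itself read -0.79, -1.01, -1.37 and -1.30 in the untreated tumours and between -1.59 and -1.51 in the resistant tumours, a difference of -0.43 (adjusted p = 0.142, limma). Mcm5 differed by -0.42 with overlapping groups. A match describes the letters only, shows no binding and does not bear on why a gene differed.

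None of the genes induced by interferon passed. Of 25 measured, 23 were below 0. At an unadjusted p under 0.05, 14 were lower and none higher, against 8.06% and 5.51% of all genes. The interferon median was -0.64, with -0.72 within slide 1 and -0.55 within slide 2. Against the same untreated arrays it was -0.67 at 4 days and -0.69 at 60 days. Within slide 1 alone 1 gene was lower at an unadjusted p under 0.05, and within slide 2 alone 5 were, against 317 and 1852 of all 21911 genes. Irf1, a transcription factor of the interferon-gamma response, read 1.55, 1.06, 1.94 and 1.17 in the untreated tumours and 0.56, 0.07, 1.03 and -0.03 in the resistant tumours, a difference of -1.02 (adjusted p = 0.186, limma). The T cell attracting chemokine Cxcl9 read 4.32, 3.70, 4.09 and 3.03 in the untreated tumours and 0.72, 1.02, 3.37 and 2.05 in the resistant tumours, with means of 3.79 ± 0.57 and 1.79 ± 1.20 (SD, n = 4; adjusted p = 0.234, limma). Irf1 did not overlap between the groups, whereas resistant replicate 3 reached the untreated range of Cxcl9.

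The interferon difference was larger with untreated replicate 3, which had the highest mean of the list, 1.47 against 1.03, 0.53 and 0.50 in the other untreated tumours and 0.05 to 0.55 in the resistant tumours. Without that array the median was -0.44 and 5 genes were lower at an unadjusted p under 0.05, and without resistant replicate 1 as well these were -0.38 and 3. The count was 9 without resistant replicate 1, 9 without resistant replicate 2, 6 without resistant replicate 4 and 8 without untreated replicate 1. Over all genes 1855, 1117, 1455 and 1148 were lower in these fits, in the same order, against 1767 in the main fit. Without untreated replicate 3, 2468 of all genes were lower, and 2712 without resistant replicate 1 as well. All 13 genes of MHC class I presentation were below 0, 4 of them lower at an unadjusted p under 0.05, against 8.06% of all genes. The class I median was -0.35, against -0.28 at 4 days and -0.24 at 60 days. The 4 became 1 without resistant replicate 2 or 4 or untreated replicate 1 or 3, 2 without resistant replicate 1 and 7 without resistant replicate 3. In the same order, 1117, 1455, 1148, 2468, 1855 and 2027 of all genes were lower in these fits. The immunoproteasome subunit Psmb10 differed by -0.67 with no overlap. The 9 genes of MHC class II presentation had a median of -0.54, which was 0.02 within slide 1 and -0.78 within slide 2.

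Lymphocyte markers did not pass the test in either direction. The granule protease Gzma, made by cytotoxic T and NK cells, read 1.57, 1.55, 2.24 and 1.45 in the untreated tumours and 0.48, 0.28, 0.91 and -0.06 in the resistant tumours, a difference of -1.30 (adjusted p = 0.0905, limma) with no overlap. The NK receptor gene Klrb1c differed by -0.56 with no overlap and was above background on 1 resistant array. Gzmb differed by -0.28, the T cell receptor subunit Cd3e by -0.08 (95% interval -0.61 to 0.44) and the regulatory T cell factor Foxp3 by -0.21 (-0.68 to 0.26). Cd8a was above background on 1 resistant and 2 untreated arrays, so its level was not measurable in most tumours.

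Of 13 cytotoxic and NK genes 12 were below 0, and of 13 T cell genes 11 were below 0, with medians of -0.44 and -0.33. Both lists were highest in untreated replicate 3, at a mean of 1.30 for the cytotoxic genes against 0.39 to 0.81 in the other untreated tumours. Without that array their medians were -0.19 and -0.08. The checkpoint ligand Cd274 differed by 0.03 (-0.72 to 0.78). In whole biopsies fewer cells of a type and less RNA per cell cannot be told apart.

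Myeloid genes divided the resistant tumours among themselves. The mean level of 11 measured granulocytic genes was 3.35 and 2.44 in resistant replicates 1 and 2, but 1.22 and 1.43 in resistant replicates 3 and 4, where the untreated tumours had 1.30 to 1.71. The list's median difference was -0.10 within slide 1 and 1.15 within slide 2, and 0.56 over all 8 arrays. It was -0.29 at 4 days and -0.32 at 60 days. At an unadjusted p under 0.05, 4 genes of the list were higher, against 5.51% of all genes. That count was 1 without resistant replicate 1 or untreated replicate 1 and 2 without resistant replicate 2 or untreated replicate 2. Over all genes the higher ones went from 1207 to 2105, 912, 817 and 803 in these fits, in the same order. Cxcr2, the chemokine receptor of neutrophils, read 4.15, 2.41, 1.09 and 1.17 in the resistant tumours and 0.47 to 1.34 in the untreated tumours (difference 1.16, adjusted p = 0.307, limma). The antimicrobial peptide gene Camp read 4.58 and 2.02 in the first 2 resistant tumours and -0.02 and 0.18 in the other two. S100a8 and S100a9, which mark neutrophils and immature myeloid cells, differed by 0.74 (95% interval -0.86 to 2.34) and 0.56 (-0.19 to 1.30).

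The same tumours held the most RNA for myeloid chemokines. The mean of 16 myeloid chemokine and growth factor genes was 1.44 and 0.14 in resistant replicates 1 and 2 and -1.01 and -0.90 in resistant replicates 3 and 4, and the untreated tumours lay between -0.77 and 0.03. Il6 read 4.38 in resistant replicate 1 and 1.01, -1.50 and -1.17 in the others, and the neutrophil attractant Cxcl1 read 1.43, -2.02, -3.96 and -3.76. The median of the list was 0.21, and it turned to -0.46 without resistant replicate 1 and -0.13 without untreated replicate 1. Within it Cx3cl1, a membrane-bound attractant, differed by -0.79 (adjusted p = 0.0794, limma) and Il34, a ligand of the macrophage receptor Csf1r, by 0.69 (adjusted p = 0.0844, limma), each without overlap.

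Markers of monocytes and macrophages lay on both sides of 0, 8 above and 8 below, with a median of -0.01. Ccl2, the chief monocyte attractant, read -1.14, -0.44, -0.64 and -0.38 in the untreated tumours and 0.42, -1.04, -1.50 and -1.53 in the resistant tumours, a difference of -0.26 (95% interval -1.05 to 0.53), against -1.16 at 4 days and -1.09 at 60 days. Its receptor Ccr2 differed by 0.15 (-0.81 to 1.12) and Csf1r by -0.17 (-0.88 to 0.54). Arg1, an arginine-degrading enzyme of suppressive myeloid cells, differed by 0.32 (-0.57 to 1.21). Nos2, the inducible nitric oxide synthase, read between -1.11 and -0.75 in the untreated tumours and 0.12, -0.25, -0.74 and -0.69 in the resistant tumours, a difference of 0.61 (adjusted p = 0.168, limma). All 7 measured mast cell genes were above 0, 5 of them at an unadjusted p under 0.05, against 5.51% of all genes. The mast cell median was 0.44, against 0.35 at 4 days and 0.40 at 60 days. Gata2, a transcription factor of mast cells, differed by 0.56 with no overlap. The 5 became 2 without resistant replicate 4 or untreated replicate 1 or 2, and 3 without resistant replicate 1, 2 or 3. In the same order, 1185, 912, 803, 2105, 817 and 1475 of all genes were higher in these fits, against 1207 in the main fit.

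**Figure D3:**
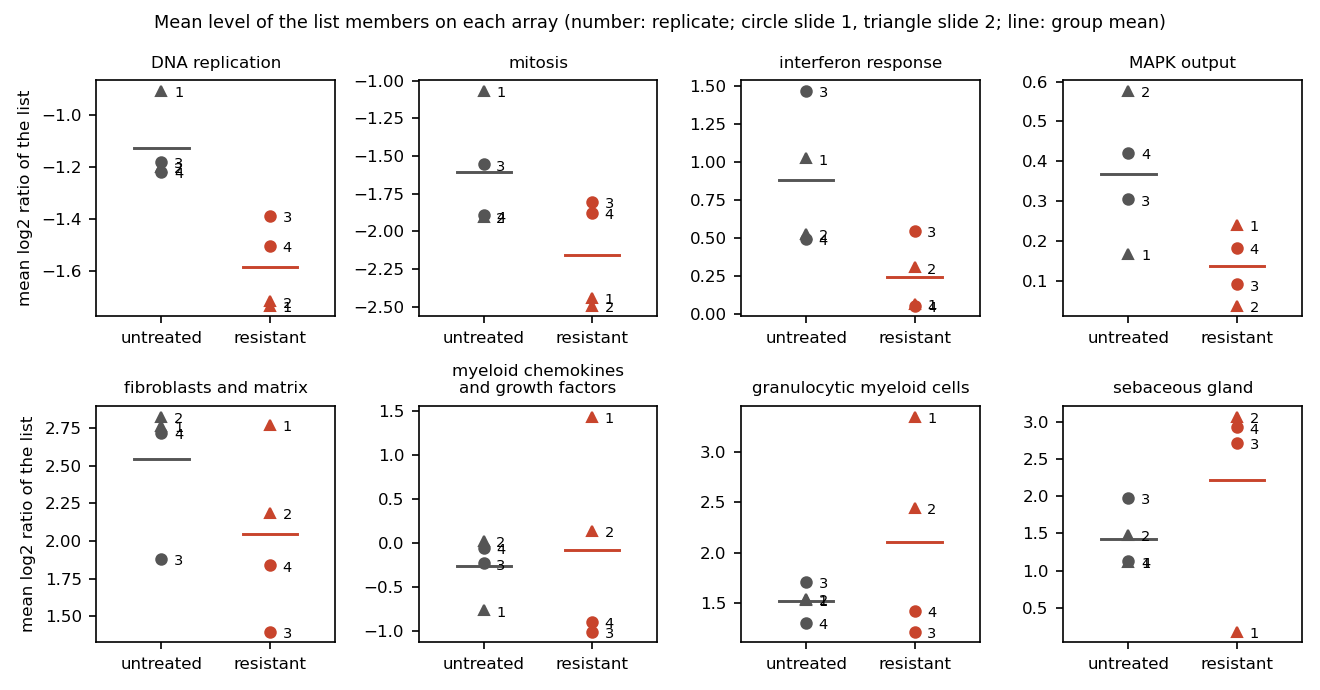
Mean log2 ratio of the measured members of 8 gene lists on each of the 4 untreated and 4 resistant arrays, numbered by replicate, with circles for slide 1, triangles for slide 2 and a line at each group mean. For granulocytic genes resistant replicates 1 and 2, at 3.35 and 2.44, lie above all untreated tumours and replicates 3 and 4 do not, and for sebaceous genes resistant replicate 1, at 0.18, lies below all other tumours.

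None of the genes of fibroblasts and matrix passed in limma. Of 20 measured, 17 were below 0 and 6 of these were lower at an unadjusted p under 0.05, against 8.06% of all genes. The median of the list was -0.48, against -0.70 at 4 days and -0.81 at 60 days. Col8a1, a short-chain collagen, read 1.01, 0.83, 0.83 and 1.04 in the untreated tumours and -0.16, -1.15, -0.16 and 0.08 in the resistant tumours, and differed by -1.28 (adjusted p = 0.167, limma). The proteoglycan Vcan differed by -1.12 with no overlap and fibronectin, Fn1, by -1.17 with overlap. Untreated replicate 3 was the lowest of its group for this list, at a mean of 1.88 against 2.72 to 2.83. Without that array 10 genes were lower at an unadjusted p under 0.05 and 1 passed the adjusted threshold, and the median was -0.76. Without resistant replicate 1 these were 7, 1 and -0.71, and without both 11, 5 and -0.97. Over all genes, in the same order, 2468, 1855 and 2712 were lower at an unadjusted p under 0.05 in these fits (limma). Those that passed, in either direction, were 408, 221 and 2039.

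Of the endothelial genes 11 of 12 were above 0, with a median of 0.29. The median was 0.00 within slide 1, with 6 above and 6 below, and 0.53 within slide 2, with all 12 above. It was 0.14 without resistant replicate 1 and 0.14 without untreated replicate 1. None passed in limma, where 4 were higher at an unadjusted p under 0.05, against 5.51% of all genes. Without resistant replicate 2 or untreated replicate 1 that count was 2, and 817 and 912 of all genes were higher. The clotting factor carrier Vwf differed by 0.96 (adjusted p = 0.0969, limma). Its resistant values were 3.91, 4.15, 2.56 and 3.18, and resistant replicate 3 lay within the untreated range of 2.32 to 2.60. Red blood cell genes had a median of 0.66 over 5 measured, 0.29 within slide 1 and 0.95 within slide 2. At an unadjusted p under 0.05, 3 were higher, against 5.51% of all genes. Without resistant replicate 1 or 2 or untreated replicate 2 that count was 0, and 2105, 817 and 803 of all genes were higher. The mean of the red blood cell genes was 2.39 and 2.81 in resistant replicates 1 and 2 and 1.55 and 1.57 in resistant replicates 3 and 4. In the untreated tumours it was 1.04 to 1.97. The part of blood content in the endothelial values was not tested. Of 15 hypoxia and glycolysis genes 13 were above 0, with a median of 0.24, and the mitochondrial kinase Pdk1 differed by 0.56.

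Skin gene lists differed between single tumours of both groups. The mean of the hair shaft genes was 1.1, 3.1, 3.6 and 4.2 in resistant replicates 1 to 4. In untreated replicates 1 to 4 it was 4.1, 1.6, 4.1 and 1.3. The 11 sebaceous gland genes were all above 0, and 3 were higher at an unadjusted p under 0.05, against 5.51% of all genes. The median of these 11 was 0.88, against 1.29 at 4 days and 1.62 at 60 days. Their mean was 3.07, 2.72 and 2.93 in resistant replicates 2, 3 and 4 but 0.18 in resistant replicate 1, below the untreated range of 1.11 to 1.98. Without that array 9 of the 11 were higher at an unadjusted p under 0.05, 7 passed the adjusted threshold and the median was 1.62. In that fit 2105 of all 21911 genes were higher at an unadjusted p under 0.05 (limma), and 154 of them passed. The sebaceous count at an unadjusted p under 0.05 was 2 without resistant replicate 2, 3 or 4 and without untreated replicate 1 or 4. In the same order, 817, 1475, 1185, 912 and 851 of all genes were higher in these fits, against 1207 in the main fit. Dgat2l6, an acyltransferase of the gland, had no value on resistant replicate 1 and read 4.31, 3.64 and 4.13 in the other resistant tumours against 0.71, 1.77, 3.1 and 1.29 in the untreated tumours. It differed by 2.34 (adjusted p = 0.0835, limma). The desaturase Scd1 differed by 1.18 (adjusted p = 0.0987, limma). Dgat1 and Plin2, which also act in lipid storage, are described above, and Plin1, the adipocyte droplet protein, differed by -0.03. Hair shaft genes had a median of 1.21 within slide 1 and -0.85 within slide 2, and keratinocyte genes 0.52 and -0.49. Over all 8 arrays these medians were 0.21 and 0.01. Without resistant replicate 1 the hair median was 0.94, and of the 15 keratinocyte genes 11 were higher at an unadjusted p under 0.05 and 1 passed the adjusted threshold, with a median of 0.65. The hair median was -0.32 without untreated replicate 4, -0.16 without resistant replicate 4 and -0.10 without untreated replicate 2, and the keratinocyte median was -0.28 without resistant replicate 2 and -0.30 without resistant replicate 4. The part of skin content in these differences was not tested.

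All 10 measured glucocorticoid target genes were above 0, and 3 were higher at an unadjusted p under 0.05, against 5.51% of all genes. The median of these 10 was 0.52, against 0.90 at 4 days and 0.84 at 60 days. Glul, the glutamine synthetase, read 1.84, 1.90, 1.89 and 1.90 in the untreated tumours and 2.53, 2.48, 2.42 and 2.70 in the resistant tumours, and differed by 0.65 (adjusted p = 0.104, limma). The groups were both tight and far apart. Sgk1, a hormone-induced kinase, differed by 0.80 with overlapping groups. Clock genes were near the untreated level, with a median of 0.11, against 1.08 at 4 days and 0.20 at 60 days.

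**Figure D4:**
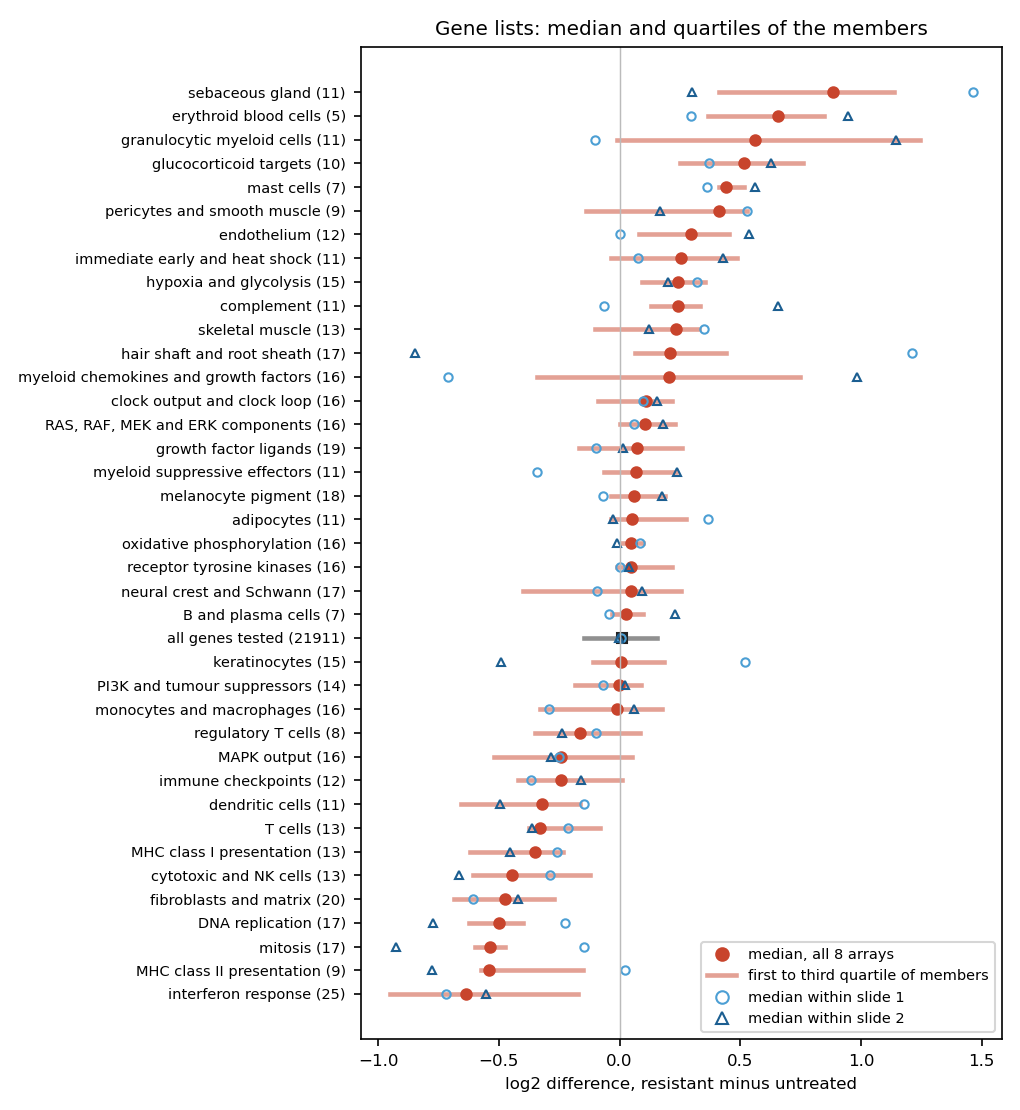
Median (filled point) and quartiles (bar) of the log2 difference, resistant minus untreated, over the measured members of each list of at least 5 genes, with open marks for the median within each slide. All genes tested have a median of 0.01, the interferon list is lowest at -0.64, the sebaceous list is highest at 0.88, and the myeloid chemokine list goes from -0.71 in slide 1 to 0.98 in slide 2.

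Of single genes fixed for their course over treatment, Tmem200a, a membrane protein of little known role, read 2.40, 2.50, 1.83 and 2.26 in the untreated tumours and between 0.67 and 1.14 in the resistant tumours. Its difference of -1.32 did not pass (adjusted p = 0.0794, limma), and it was -2.37 at 4 days and -1.94 at 60 days. The imprinted gene Mest differed by -1.94 (adjusted p = 0.121, limma), against -1.39 and -2.99. The protease gene Adamts4 differed by -0.50 (95% interval -1.19 to 0.20), against -2.76 and -1.61. These 3 comparisons share the untreated arrays. Xist was above background on all 8 arrays, and the Y-linked genes Ddx3y and Eif2s3y were above background on too few arrays to be tested.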

How the data were processed

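Total RNA from melanoma biopsies was labelled with Cy5 and hybridised against Universal Mouse Reference RNA in Cy3, per the labels. The authors deposited 1 scanner file per array from Feature Extraction 10.7.3.1, with raw mean and background intensities, processed intensities and the log10 ratio of the red to the green channel, per the file headers. The deposited series table gives the same ratio in log2: against the scanner log10 ratios rescaled to log2 its 16 columns had slopes of 0.993 and medians of -0.19 to -0.06, it is not centred, and its rule for missing values is unstated. Flags for outlier, saturated and above-background spots and mm9 probe positions were used as deposited.

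Mean intensities were corrected with normexp (offset 50) over all 16 arrays and normalised by loess within each array, using limma 3.58.1 in R 4.3.3. Control spots and outlier spots (0.55% of values) were left out, spots of a probe were averaged, probes whose Cy5 was well above background on at least 4 of 16 arrays were kept (30486 of 55681), and the brightest probe stood for a gene. Old symbols were updated through the RefSeq table by accession or synonym. Resistant minus untreated was fitted on all 16 arrays with the slide as a fixed block (lmFit, eBayes), with p-values adjusted over 21911 genes (Benjamini-Hochberg). The pipeline was tested on simulated data. Position on the slide followed the group and cannot be told apart from it, and the number of arrays limits the precision.

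Named genes are those past the threshold, then the smallest p-values with a log2 difference of at least 1 up to 12 per direction with a symbol, the 2 brightest members of each list, and a set of fixed genes; a few of these are not reported here. Other list members given as examples were chosen after their values were seen. The comparison and its 39 gene lists were chosen with earlier results of these data known. Alternatives covered the slide, the samples in the fit, single arrays, array weights, background, normalisation, the deposited table, the filter, the probe choice, outlier spots and the variance model.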

Additional observations from a re-analysis of the deposited data

Results flagged for a closer look

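In 184 groups of 4 arrays (named genes and list means, resistant or untreated), the gap of the highest or lowest array to its nearest neighbour was divided by the range of the group, and 16 ratios were above Dixon's 95% critical value for 4 samples, where chance gives about 1 in 20. Untreated replicate 3 was the low array for Ccnd1 (ratio 0.907, level 1.75 against 2.72 to 2.81) and for the fibroblast and matrix list (0.884, mean 1.88 against 2.72 to 2.83), and the high array for Cd8a (0.862) and Foxp3 (0.905, level 1.19 against 0.06 to 0.17). Untreated replicate 1 was low for Pla2g5 (0.945), Nxph3 (0.896) and Dusp1 (0.887), and high for the DNA replication list (0.876, mean -0.91 against -1.22 to -1.18).

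Resistant replicate 1 was low for the sebaceous gland list (0.880, mean 0.18 against 2.72 to 3.07) and high for Tbxas1 (0.904, level 2.17 against 1.41 to 1.48). Resistant replicate 2 was high for Pla2g5 (0.838) and for the neural crest and Schwann list (0.950, mean 2.48 against at most 2.21). Resistant replicate 3 was low for Cd3e (0.900, level -1.31 against -0.08 to 0.06), and high for the cytotoxic and NK cell list (0.845, mean 0.71 against 0.20 to 0.28) and the oxidative phosphorylation list (0.954, mean 0.16 against -0.13 to -0.12). Resistant replicate 4 was low for Mitf (0.912, level 0.05 against 0.62 to 0.68).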

How the results depend on the processing

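The number of features past the threshold, 14, was the value that moved most. It was 4 with no slide in the model, 1 with the 8 arrays of the 2 groups alone, 0 within slide 1 (limma, 761 genes at an unadjusted p under 0.05) and 0 within slide 2 (3171 genes). It was 288 with the title code as a random block, for which the fitted correlation within codes was negative, -0.11. The slide was also in that fit, and code and slide cannot be told apart within the resistant group. The correlation therefore does not show whether tumours of a code were more alike. The number of features past the threshold was 5325 with array weights, 7 from the processed signals of Feature Extraction and 3 with median centring. It was 4 from the deposited table, 3 with no filter on dim probes and 2 with outlier spots kept. Leaving out 1 array gave 2 to 408, and leaving out resistant replicate 1 and untreated replicate 3 together, an alternative chosen after seeing the data, gave 2039. The other settings gave 11 to 15. The share of calls that were higher was 42.9%, against 57.1% from processed signals, 54.5% from Cy5 alone and 33.3% with median centring. Over these 34 alternatives ENSMUST00000067018 stayed past the threshold in 30, the adjoining lincRNA in 31 and Adh1 in 29, and each of the other called features in 10 to 20 of 33 or 34; none changed direction. Medians of the DNA replication list ran from -0.77 to -0.22. No paired analysis was possible because replicate numbers were given in accession order and pair no samples. Causes of these shifts were not tested.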
